A study of Mus musculus with 11 samples.

Results

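The genes described are 10 glutathione S-transferases of AML12 cells: the mu-class *Gstm1*, *Gstm2*, *Gstm4*, *Gstm5* and *Gstm6*, the pi-class *Gstp1* and *Gstp3*, the kappa-class *Gstk1*, the omega-class *Gsto1* and the microsomal *Mgst1*. They were found by name in the count table, where all 10 were present among 24849 genes, and the counts of entries with the same name were summed. AML12 is a mouse hepatocyte line made with a TGF-alpha transgene, and its RNAseq libraries were made from polyadenylated RNA. The 4 KO libraries carry the genotype label TXNDC5 Knockdown, while the methods describe stable cells made with a CRISPR/Cas9 knockout plasmid, a repair plasmid and puromycin. The 3 WT libraries are of the parental cells, and the 4 KI libraries carry the label TXNDC5 Knockin, which the series text describes as overexpression from the ROSA26 safe harbour. All 3 lines were grown in medium with insulin, transferrin, selenium and dexamethasone, a glucocorticoid. The sources do not say whether KO or KI is a single clone, so that an effect of *Txndc5* and a difference between lines of cells cannot be told apart, and p-values measure only the spread between the sequenced samples.

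Glutathione S-transferases join the tripeptide glutathione to electrophilic drugs and to products of lipid peroxidation, and the conjugates are then exported and excreted as mercapturates. The mu and pi classes are soluble cytosolic enzymes, and pi enzymes also bind the kinase JNK. The kappa enzyme lies in mitochondria and peroxisomes and is more closely related to bacterial disulfide oxidoreductases than to the other classes. Omega enzymes carry a cysteine in the active site and have thioltransferase and dehydroascorbate reductase activity. MGST1 belongs to a separate family of membrane proteins, the MAPEG family, and sits in the endoplasmic reticulum and the outer mitochondrial membrane, where it conjugates and also reduces lipid hydroperoxides. TXNDC5 is a protein disulfide isomerase of the endoplasmic reticulum.

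How well reads can be assigned to single members depends on how alike the genes are, so the first 90 coding bases are shown here for the pi genes and for 3 mu genes. They were read from the GENCODE transcripts of GRCm38, and capitals mark the bases that differ from *Gstp1* or from *Gstm1*.
*Gstp1*: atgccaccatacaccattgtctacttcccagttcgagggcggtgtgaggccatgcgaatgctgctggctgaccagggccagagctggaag
*Gstp2*: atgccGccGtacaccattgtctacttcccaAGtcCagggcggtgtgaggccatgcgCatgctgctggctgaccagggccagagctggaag
*Gstp3*: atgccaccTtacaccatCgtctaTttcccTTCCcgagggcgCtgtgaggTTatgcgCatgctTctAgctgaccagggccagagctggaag
*Gstm1*: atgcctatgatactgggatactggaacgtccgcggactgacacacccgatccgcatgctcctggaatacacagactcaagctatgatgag
*Gstm2*: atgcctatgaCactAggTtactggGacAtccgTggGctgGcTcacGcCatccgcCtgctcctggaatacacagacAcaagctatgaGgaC
*Gstm6*: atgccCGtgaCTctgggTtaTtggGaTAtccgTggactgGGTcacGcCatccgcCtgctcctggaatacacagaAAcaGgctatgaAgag
In this stretch *Gstp2* differs from *Gstp1* at 6 bases and *Gstp3* at 13, while *Gstm2* differs from *Gstm1* at 15 and *Gstm6* at 20. Over the whole coding sequence *Gstp1* and *Gstp2* are 98.1% identical. Of the 100-base windows of *Gstp1*, 59.0% occur unchanged in another gene, most often in *Gstp2* and the pseudogene *Gstp-ps*. *Gstp1* counts are therefore uncertain in how they were divided from *Gstp2*. *Gstp3* is 73.4% identical to *Gstp1* and shares no such window with another gene. *Gstm1* shares 16.5% of its windows, most often with the pseudogenes *Gstm2-ps1* and *Gm8834*, *Gstm6* shares 4.66%, all with *Gstm3*, and *Gstm2* shares 1.08%. *Gstm4*, *Gstm5*, *Gstk1*, *Gsto1* and *Mgst1* share none. With shorter windows of 50 bases more is shared, 71.1% for *Gstp1*, 46.5% for *Gstm1*, 21.4% for *Gstm6* and 15.6% for *Gstm2*. *Gstm3* is then also among the genes that share most with *Gstm1*, as it remains for *Gstm6*, and the other members still share none. The mu genes form a cluster on chromosome 3 in the order *Gstm5*, *Gstm7*, *Gstm6*, *Gstm3*, *Gstm2*, *Gstm1* and *Gstm4*, the pi genes and *Gsto1* lie on chromosome 19, and *Gstk1* and *Mgst1* lie on chromosome 6. An exon of *Gstm5* overlaps the antisense gene 4933431E20Rik, and since strand use in the counting is not given in the sources used here, reads of both cannot be told apart.

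Promoters are shown for the 3 members with an antioxidant response element core or an AP-1 site, and for *Gstk1*, which had the largest fold change of the members and neither motif. The sequences are those of RefSeq for GRCm38.p6, from 250 bases before to 50 bases after the start of the gene, and all 10 members were matched, with 15 promoters in all. Capitals mark TGACNNNGC, the core of the antioxidant response element bound by NRF2, and TGANTCA, the AP-1 site, each searched on both strands.
*Gstm5*, chr3:107895604-107895903, plus strand: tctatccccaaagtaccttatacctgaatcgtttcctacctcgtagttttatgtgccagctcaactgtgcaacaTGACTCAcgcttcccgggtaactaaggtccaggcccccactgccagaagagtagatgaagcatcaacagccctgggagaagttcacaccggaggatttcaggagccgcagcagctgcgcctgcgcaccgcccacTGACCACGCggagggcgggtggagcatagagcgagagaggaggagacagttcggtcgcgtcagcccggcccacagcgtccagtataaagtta
*Gstp1*, chr19:4037863-4038162, minus strand: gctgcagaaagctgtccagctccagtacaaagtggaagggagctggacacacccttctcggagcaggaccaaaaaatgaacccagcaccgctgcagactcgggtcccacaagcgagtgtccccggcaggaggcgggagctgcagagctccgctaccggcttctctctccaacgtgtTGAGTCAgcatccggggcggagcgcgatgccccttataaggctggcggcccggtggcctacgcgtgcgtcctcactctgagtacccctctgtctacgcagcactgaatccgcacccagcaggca
*Mgst1*, chr6:138140277-138140576, plus strand: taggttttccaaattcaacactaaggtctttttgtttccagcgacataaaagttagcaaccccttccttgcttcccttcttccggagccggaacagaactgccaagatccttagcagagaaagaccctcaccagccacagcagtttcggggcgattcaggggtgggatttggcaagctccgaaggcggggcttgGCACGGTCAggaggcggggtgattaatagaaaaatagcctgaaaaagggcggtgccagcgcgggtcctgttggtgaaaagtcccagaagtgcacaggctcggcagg
*Gstk1*, chr6:42245685-42245984, plus strand: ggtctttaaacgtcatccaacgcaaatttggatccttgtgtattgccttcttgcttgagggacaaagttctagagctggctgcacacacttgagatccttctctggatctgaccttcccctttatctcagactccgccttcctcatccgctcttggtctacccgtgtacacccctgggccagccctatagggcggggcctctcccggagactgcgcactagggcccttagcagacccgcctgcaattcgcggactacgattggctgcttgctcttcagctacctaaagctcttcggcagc
In *Gstm5* the AP-1 site begins 176 bases and the antioxidant core 42 bases upstream of the start. In *Gstp1* the AP-1 site begins 74 bases upstream. In *Mgst1* the antioxidant core is on the opposite strand, 56 bases upstream. Of 32851 promoters of this length, 12.4% hold TGACNNNGC and 7.81% hold TGANTCA, so that these letters are common. A dioxin response core, GCGTG, is found in promoters of *Gstm1*, *Gstm5*, *Gstp1* and *Gstp3* and in 32.4% of all promoters. In *Gstm5* 1 of its 2 matches, 38 bases upstream, overlaps the antioxidant core. A match is a run of letters only, and binding was not measured.

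The libraries held between 29840366 and 38422243 counts. Levels are given as CPM, counts scaled to the size of the library, here with the factors of TMM, edgeR's normalization. *Txndc5* itself had 10.2, 8.50, 12.9 and 9.39 CPM in the KO libraries, 147, 138 and 143 in the WT libraries and 158, 180, 176 and 163 in the KI libraries. It was lower in KO than in WT (log2 fold change -3.82, edgeR adjusted p = 4.09e-08). In KI against WT the log2 fold change was 0.24 (SE 0.12, edgeR adjusted p = 0.136), so a higher level was not called, although it was with library totals in place of TMM (0.57, edgeR adjusted p = 0.00623). All 8 hepatocyte markers were over the floor of 3 counts in each line, with a summed level of 6326 to 7452 CPM in KO, 3856 to 6019 in WT and 2963 to 3761 in KI. The markers did not go one way, since *Alb* averaged 4115 CPM in KO and 513 in WT, whereas *Trf* averaged 1346 and 2975 and *Ttr* 438 and 826. Of 5 cholangiocyte markers, 4 were also over it, with 1339 to 1504 CPM in KO, 2974 to 4379 in WT and 2604 to 3083 in KI, while *Epcam* was at 0. *Spp1* averaged 246 CPM in KO and 2520 in WT, and *Krt19* went the other way, with 1097 and 769.7. Summed markers of fibroblasts, endothelium and leukocytes reached at most 9.20 CPM in any library, the leukocyte list in WT, with *Adgre1* and *Clec4f* at 0. The part of these markers in the results was not tested. Among the WT libraries, WT 8 differed most from the others (chi-square per degree of freedom 169 and 125, against 56.5 between WT 5-6 and WT 7), and results that rest on it are given with and without it. The KO and KI groups were not even either. KO 5 differed most from the other KO libraries (81.1, 106 and 118, against 17.2 to 43.2 between the others), and pairs of KI libraries ran from 55.9 to 143.

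Compared per kilobase of transcript, which allows levels of different genes to be set side by side, *Mgst1* was the highest member in WT cells, with 683 CPM per kb. It was followed by *Gstp1* (485), *Gsto1* (262), *Gstm1* (152) and *Gstm5* (117), and the other 5 members lay between 3.99 and 33.5. The ranges of *Mgst1* and *Gstp1* overlapped in WT cells, as did those of *Gstm1* and *Gstm5* and those of *Gstp3*, *Gstk1* and *Gstm2* with their neighbours in the order. In KO cells *Mgst1* (467 CPM per kb) and *Gsto1* (416) overlapped at the top, and *Gstm2* (70.7) stood beside *Gstm5* (63.1), with overlapping ranges. *Gstk1* (0.810 CPM per kb) and *Gstm6* (0.849) were the lowest members in KO cells, and their ranges overlapped. In KI cells *Gsto1* (253), *Mgst1* (215) and *Gstp1* (197) made up the top, each overlapping the next, and *Gstm6* was lowest at 1.46. The KI cells thus held *Gstp3* (2.41) near the bottom of the order, where it overlapped both *Gstm4* and *Gstm6*. Per kilobase of coding sequence some places changed, and *Mgst1*, *Gsto1* and *Gstm1* were then the top 3 in KO and in KI cells.

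**Figure D1:**
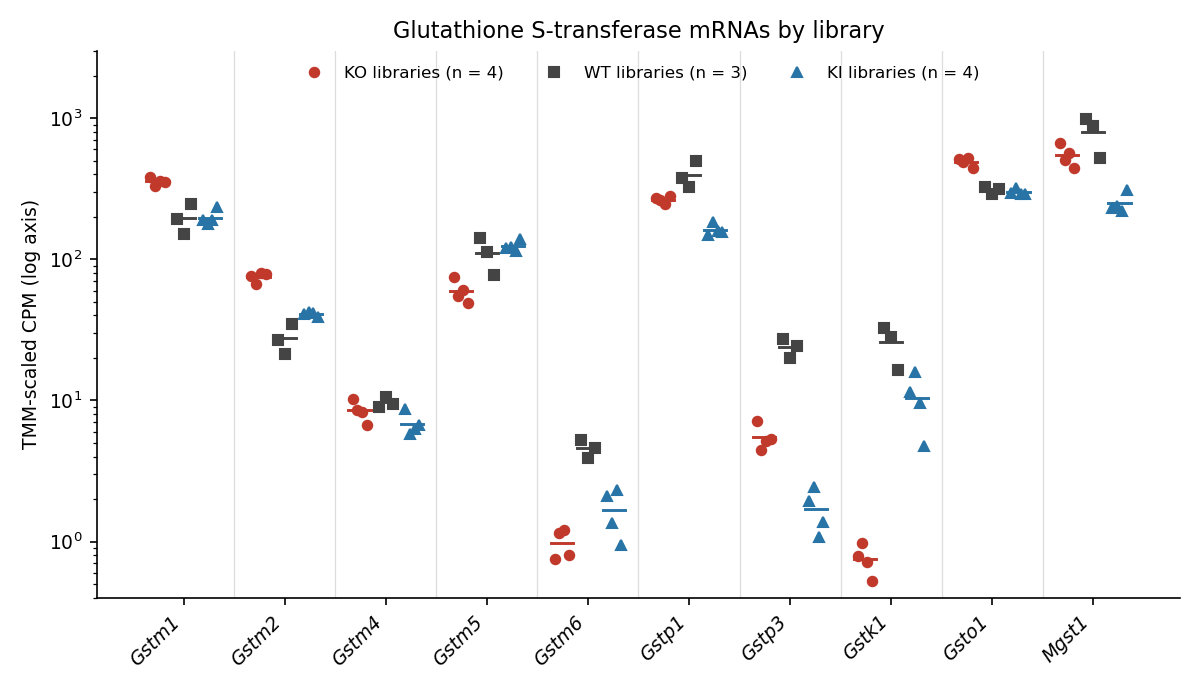
Level of each of the 10 transferase mRNAs in every library, in TMM-scaled CPM on a log axis, with KO, WT and KI libraries as points and the group mean as a line. *Gstk1* lies below 1 CPM in every KO library, against 16.5 to 32.6 CPM in WT, and *Gstp3* is lowest in the KI libraries.

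All 10 members passed the filter on low counts in each comparison. Between KO and WT cells 9 of them were called at an adjusted p under 0.05, 3 higher and 6 lower in KO, against 55.1% of all 13359 genes tested, 26.7% higher and 28.4% lower. Their median log2 fold change was -0.59, beside -0.03 over all genes. The groups did not overlap for 8 members, where this held for 55.3% of genes. Between KI and WT cells 6 members were called, 1 higher and 5 lower in KI, against 42.3% of 13534 genes, 21.2% higher and 21.0% lower. The median of the members was -0.90, beside -0.02, and 7 did not overlap, against 44.7% of genes. Between KO and KI cells 8 members were called, 6 higher and 2 lower in KO, against 54.0% of 13269 genes, 27.0% in each direction. The median was 0.72, beside 0.00, and 8 did not overlap, against 48.6% of genes. Without WT 8 the members called stayed at 9 in KO against WT and at 6 in KI against WT. The genes called then numbered 8449 in KO against WT, in place of 7364, and 6969 in KI against WT, in place of 5722. The comparisons share libraries, so they are given side by side and are not independent of each other. *Gstm6* and *Gstp3* were among the transcripts that the study itself picked from the same KO and WT libraries, which makes their direction no independent evidence.

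The zero of these fold changes depends on the scaling. The pair of new, unannotated entries that drew most reads took 14.8% to 22.4% of a WT library, 6.41% to 8.45% of a KO library and 7.71% to 12.8% of a KI library. When libraries were scaled by their totals alone, the median over all genes moved from -0.03 to 0.38 in KO against WT and from -0.02 to 0.31 in KI against WT, and only from 0.00 to 0.06 in KO against KI. Fold changes are therefore relative to the bulk of the genes. With library totals *Gstm4* in KO against WT (0.20) and *Gsto1* in KI against WT (0.28) changed sign, both without a call, *Gstp1* (-0.21) and *Mgst1* (-0.13) lost their calls in KO against WT, and *Gstm5* in KI against WT was called higher (0.53).

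**Figure D2:**
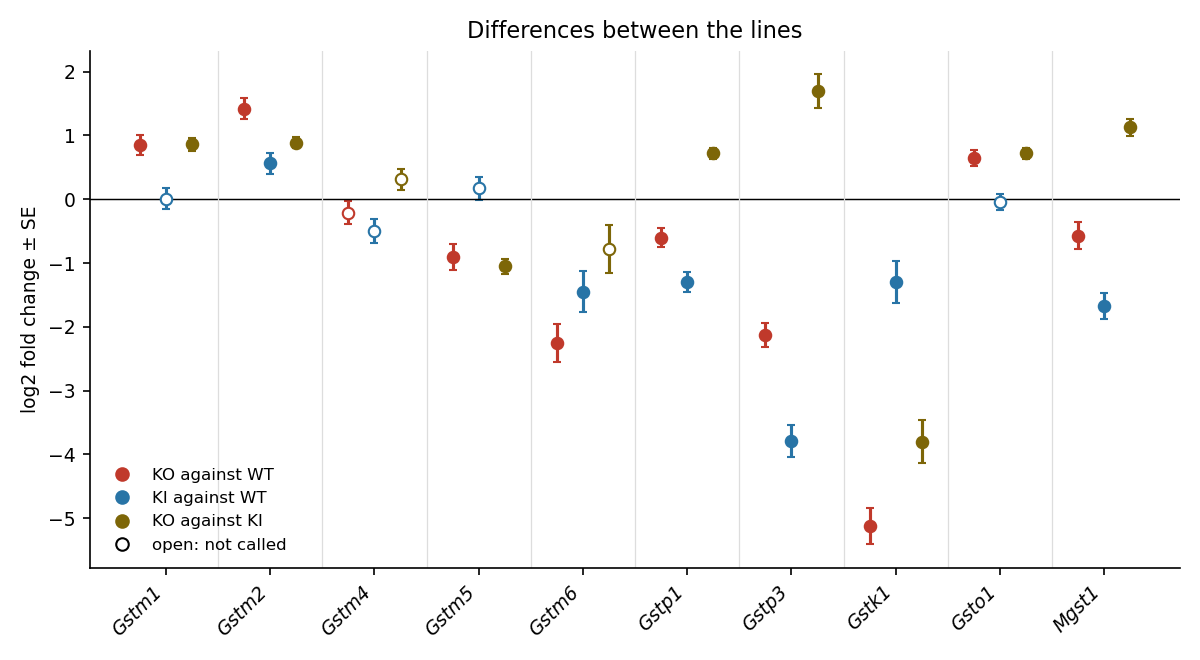
Log2 fold change of each member with its standard error in KO against WT (7 libraries), KI against WT (7) and KO against KI (8), from edgeR, with open points where the adjusted p was 0.05 or more. The values run from -5.12 for *Gstk1* in KO against WT to 1.69 for *Gstp3* in KO against KI.

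*Gstm1*, the main mu-class enzyme of mouse liver, was higher in KO cells than in both other lines. It stood at 381, 333, 358 and 355 CPM in KO 5 to KO 8, at 191, 151 and 246 in WT 5-6, WT 7 and WT 8, and at 189, 177, 189 and 234 in KI 5 to KI 8. Every KO library lay above every other library, and the WT and KI ranges overlapped. The level was 1.80-fold higher in KO than in WT (log2 fold change 0.85, SE 0.16, edgeR adjusted p = 0.00108) and 1.81-fold higher than in KI (0.86, SE 0.10, edgeR adjusted p = 2.59e-06). Between KI and WT the log2 fold change was 0.01 (SE 0.17, edgeR adjusted p = 0.971).

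*Gstm2*, which comes next to *Gstm1* in the cluster, was also highest in KO cells. It had 75.8, 66.4, 79.5 and 79.3 CPM in KO, 26.9, 21.3 and 35.1 in WT and 41.2, 42.3, 41.3 and 38.9 in KI. The 3 lines did not overlap. KO cells held 2.68-fold more than WT cells (log2 fold change 1.42, SE 0.17, edgeR adjusted p = 4.50e-05) and 1.84-fold more than KI cells (0.88, SE 0.09, edgeR adjusted p = 7.79e-07). KI cells held 1.48-fold more than WT cells (0.56, SE 0.16, edgeR adjusted p = 0.0156), and without WT 7 this call was lost (0.40, edgeR adjusted p = 0.0916).

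*Gstm5*, known as the mu enzyme most abundant in brain and testis, went the other way in KO cells. It had 74.5, 54.9, 60.2 and 49.1 CPM in KO, 140.5, 113 and 77.2 in WT and 121, 122, 115 and 139 in KI. The KO libraries lay below all others, although KO 5 came close to WT 8. It was lower in KO than in WT (log2 fold change -0.91, SE 0.20, edgeR adjusted p = 0.00277; -1.08 without WT 8) and lower than in KI (-1.05, SE 0.12, edgeR adjusted p = 2.40e-06). KI and WT overlapped, and the sign of their difference rested on WT 8, with a log2 fold change of 0.17 (SE 0.18, edgeR adjusted p = 0.471) and of -0.03 without that library.

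*Gstm6* and *Gstm4*, which lie in the same cluster, were the low mu members. *Gstm6* had 0.757, 1.15, 1.20 and 0.805 CPM in KO, 5.26, 3.91 and 4.64 in WT and 2.10, 1.35, 2.33 and 0.943 in KI, which rest on 27 to 40, 97 to 131 and 31 to 89 counts. All WT libraries lay above the others, and KO and KI overlapped. The log2 fold change was -2.25 in KO against WT (SE 0.29, edgeR adjusted p = 9.28e-05) and -1.45 in KI against WT (SE 0.32, edgeR adjusted p = 0.00356). In KO against KI it was -0.78 (SE 0.38, edgeR adjusted p = 0.0976), and it was called without KI 8 (-0.98, edgeR adjusted p = 0.0382).

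*Gstm4* was the only member not called in any of the 3 comparisons. It ran from 6.74 to 10.3 CPM in KO, from 9.01 to 10.6 in WT and from 5.82 to 8.67 in KI. The log2 fold changes were -0.21 in KO against WT (SE 0.18, edgeR adjusted p = 0.347), -0.50 in KI against WT (SE 0.19, edgeR adjusted p = 0.0506) and 0.31 in KO against KI (SE 0.17, edgeR adjusted p = 0.135). The KI libraries lay below all WT libraries, and this difference was called by DESeq2 (-0.52, adjusted p = 0.0352) and without KI 5 (-0.63, edgeR adjusted p = 0.0308), and also by limma, with DESeq2's size factors and with all 11 libraries in one fit.

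Because these members moved in both directions, the make-up of the mu class, as well as its sum, differed between KO cells and the other lines. The sum ran from 464 to 542 CPM in KO, from 300 to 373 in WT and from 348 to 419 in KI, so that WT and KI overlapped. The 5 mu members together stood at 501 ± 32.8 CPM in KO (SD, n = 4), 348 ± 42.1 in WT (SD, n = 3) and 371 ± 32.8 in KI (SD, n = 4). *Gstm1* made up 70.2% to 72.3% of this sum in KO libraries, 50.3% to 66.1% in WT and 50.8% to 55.7% in KI. *Gstm5* made up 11.9% ± 1.52 in KO (SD, n = 4), at most 13.7% in any library, 20.7% to 37.7% in WT and 32.4% to 35.0% in KI. The KO libraries thus lay outside the range of the other lines for both genes, and WT 8 was the WT library closest to them for both. *Gstm2* made up 14.0% to 16.1% in KO, 7.11% to 9.42% in WT and 9.28% to 12.1% in KI. These sums are not per length, and the transcripts run from 945 bases for *Gstm5* to 1707 for *Gstm4*.

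**Figure D3:**
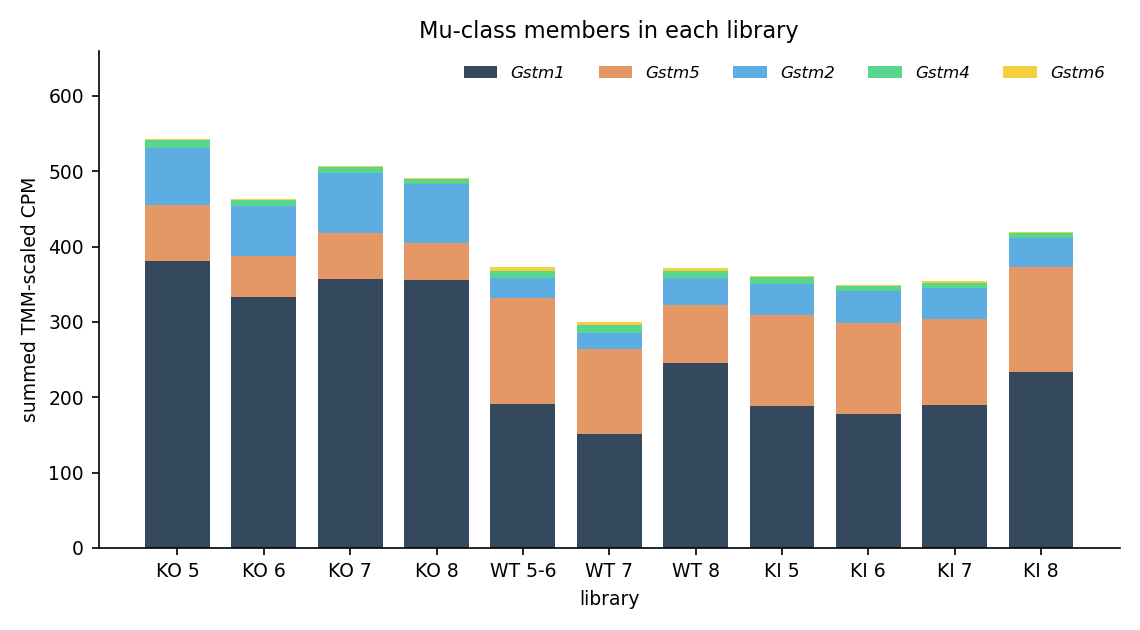
Summed TMM-scaled CPM of the 5 mu-class members in each of the 11 libraries, with 1 bar per library divided by gene. *Gstm1* is the largest segment in every library, and the *Gstm5* segment is smaller in the 4 KO libraries (49.1 to 74.5 CPM) than in the KI libraries (115 to 139 CPM).

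The pi members were lower in both edited lines than in WT cells, and lowest in KI cells. *Gstp1*, the main pi enzyme, had 269.6, 264, 245 and 282 CPM in KO, 374, 325 and 495 in WT and 149.7, 182, 157 and 157 in KI. The 3 lines did not overlap. The log2 fold change was -0.60 in KO against WT (SE 0.15, edgeR adjusted p = 0.00540), -1.30 in KI against WT (SE 0.16, edgeR adjusted p = 5.14e-05) and 0.72 in KO against KI (SE 0.09, edgeR adjusted p = 5.93e-06). WT 8 had the highest value, and without it the difference in KO against WT was -0.39 (edgeR adjusted p = 0.00701). With *Gstp2* added, whose reads may be mixed with those of *Gstp1*, the level was 276 ± 16.5 CPM in KO (SD, n = 4), 413 ± 91.4 in WT (SD, n = 3) and 167 ± 12.9 in KI (SD, n = 4).

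*Gstp3*, the less abundant pi member, had the largest difference between KI and WT cells. It stood at 7.15, 4.47, 5.13 and 5.29 CPM in KO, at 27.2, 19.9 and 24.1 in WT and at 1.93, 2.45, 1.07 and 1.37 in KI, from 151 to 255, 494 to 681 and 41 to 89 counts. No line overlapped another. It was 4.36-fold lower in KO than in WT (log2 fold change -2.12, SE 0.19, edgeR adjusted p = 6.36e-06), 13.9-fold lower in KI than in WT (-3.79, SE 0.25, edgeR adjusted p = 5.20e-07) and 3.24-fold higher in KO than in KI (1.69, SE 0.26, edgeR adjusted p = 6.84e-05). Its share of all pi counts was 1.96% ± 0.39 in KO (SD, n = 4), 5.53% ± 1.04 in WT (SD, n = 3) and 0.998% ± 0.303 in KI (SD, n = 4).

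Both pi members have 2 entries in the table, and the 10 members have 12 entries in all. For *Gstp1* the entries moved together, with log2 fold changes of -0.76 and -0.48 in KO against WT, -1.63 and -1.05 in KI against WT and 0.89 and 0.60 in KO against KI, and each was called (edgeR, adjusted p between 5.44e-05 and 0.0225). For *Gstp3* the 2 entries held like counts in the edited lines but not in WT cells, where the first had 284, 80 and 7 counts and the second had 325, 414 and 674. In KI against WT both entries were called lower (-2.76, edgeR adjusted p = 0.0479, and -4.31, edgeR adjusted p = 2.46e-06), and in KO against KI both were called higher (1.76 and 1.62, edgeR adjusted p = 3.49e-04 and 0.00143). In KO against WT the first entry alone was not called (edgeR adjusted p = 0.323). The sum of the entries was steadier between the WT libraries than either entry alone.

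**Figure D4:**
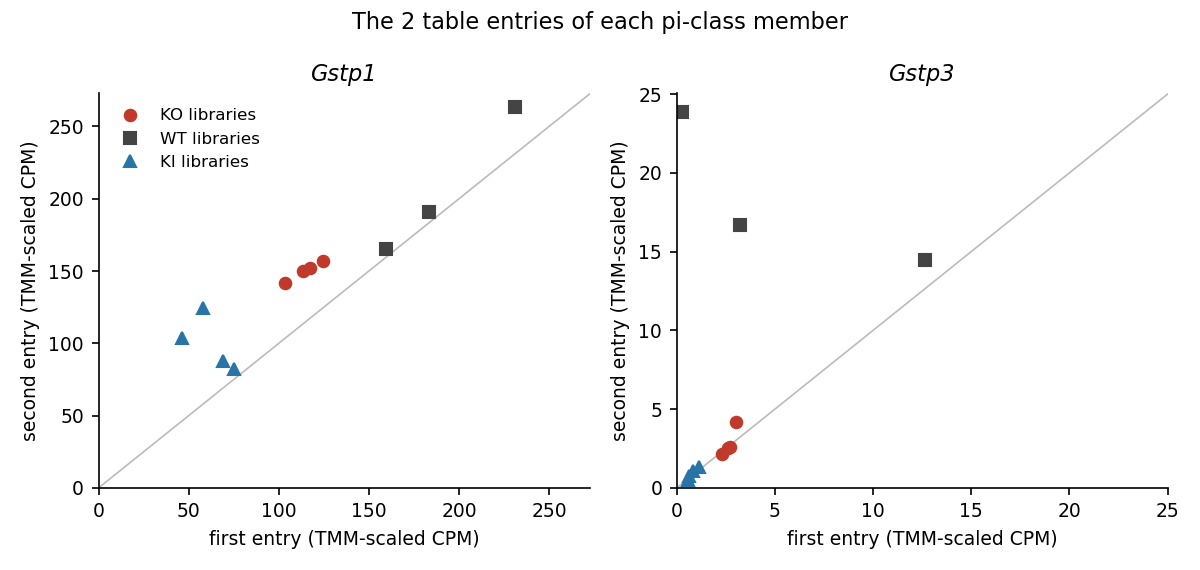
Level of the first table entry against the second entry of *Gstp1* (left) and *Gstp3* (right) in each library, in TMM-scaled CPM, with equal levels on the grey line. In *Gstp1* all points lie above the line, and in *Gstp3* the WT libraries leave the line, up to WT 8 with 0.248 CPM in the first and 23.9 CPM in the second entry.

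*Gstk1*, the mitochondrial and peroxisomal kappa transferase, had the largest difference of the 10 members. The counts were 28, 33, 24 and 23 in the KO libraries, 732, 699 and 466 in the WT libraries and 410, 577, 369 and 157 in the KI libraries. In CPM this was 0.785, 0.977, 0.720 and 0.529 in KO, 32.6, 28.2 and 16.5 in WT and 11.5, 15.9, 9.64 and 4.77 in KI. The lines did not overlap, although KI 6 came close to WT 8, and the KI libraries were spread more widely than those of most members. It was 34.8-fold lower in KO than in WT (log2 fold change -5.12, SE 0.28, edgeR adjusted p = 3.01e-07) and 13.9-fold lower in KO than in KI (-3.80, SE 0.33, edgeR adjusted p = 1.92e-07). KI cells also had less than WT cells (-1.30, SE 0.32, edgeR adjusted p = 0.00644). No library left out changed these calls, and in KO against WT the value stayed between -5.34 and -4.89.

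*Gsto1*, the omega enzyme that reduces dehydroascorbate and monomethylated arsenic, was higher in KO cells and alike in range in the other lines. It had 512, 489, 518 and 447 CPM in KO, 323, 292 and 313 in WT and 296, 319, 292 and 289.5 in KI. All KO libraries lay above the others. The log2 fold change was 0.65 in KO against WT (SE 0.12, edgeR adjusted p = 0.00101) and 0.72 in KO against KI (SE 0.08, edgeR adjusted p = 3.43e-06). In KI against WT it was -0.05 (SE 0.13, edgeR adjusted p = 0.793).

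*Mgst1*, the microsomal enzyme and the most abundant member per length in WT and KO cells, was lowest in KI cells. It had 662, 507, 567 and 441 CPM in KO, 983, 883 and 525 in WT and 232, 239.9, 221 and 309 in KI. All KI libraries lay below the others, while WT 8 lay inside the KO range. The log2 fold change was -1.67 in KI against WT (SE 0.21, edgeR adjusted p = 5.86e-05) and 1.12 in KO against KI (SE 0.13, edgeR adjusted p = 3.50e-06). In KO against WT it was -0.57 (SE 0.22, edgeR adjusted p = 0.0426), a call that was lost in 5 of 7 fits with 1 library left out, those without KO 6, KO 7, KO 8, WT 5-6 or WT 7, where the values lay between -0.59 and -0.37 and the adjusted p between 0.0780 and 0.181. Without WT 8 it was -0.77 (edgeR adjusted p = 6.79e-04). The call was also lost with limma (-0.53, adjusted p = 0.0575) and with library totals (-0.13, edgeR adjusted p = 0.532). It was kept by DESeq2 (-0.59, adjusted p = 0.0147), with all 11 libraries in one fit (-0.55, edgeR adjusted p = 0.0255) and with a replicate block (-0.59, edgeR adjusted p = 9.41e-04).

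Summed over the 10 members, the level was 1808 ± 144 CPM in KO (SD, n = 4), 1902 ± 190 in WT (SD, n = 3) and 1094 ± 65.6 in KI (SD, n = 4). The KO sums (1667 to 1994) and the WT sums (1745 to 2113) overlapped, and the KI sums (1035 to 1181) lay below both. *Mgst1* gave 26.5% to 33.2% of the sum in KO libraries, 30.1% to 47.8% in WT and 21.3% to 26.2% in KI. *Gsto1* gave 25.7% to 28.3% in KO, 15.3% to 17.9% in WT and 24.5% to 28.8% in KI.

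Other transferases and their relatives are listed next, as background to the members. Of 12 such genes (mu *Gstm3* and *Gstm7*, pi *Gstp2*, omega *Gsto2*, microsomal *Mgst2* and *Mgst3*, sigma *Hpgds*, zeta *Gstz1* and 4 others with a transferase domain) 9 were tested. In KO against WT 3 were called higher and 4 lower (4 and 2 with library totals), in KI against WT 2 higher and 6 lower (2 and 5), and in KO against KI 5 higher and 1 lower. The shares called over all genes tested were 55.1%, 42.3% and 54.0% in these comparisons. *Gstm7*, in the mu cluster, had 27.8 to 29.9 CPM in KO, 11.4 to 16.7 in WT and 16.3 to 23.6 in KI, and was called higher in KO against WT (log2 fold change 0.97, edgeR adjusted p = 2.57e-04). *Gstm3* had 0 counts in the 3 WT libraries and at most 24 in any other, and was not tested. *Mgst2* fell in KO against WT (-1.24, edgeR adjusted p = 4.94e-04), with 20.4 to 30.1 CPM in KO and 38.6 to 69.5 in WT. *Mgst3* fell in both edited lines, by 0.57 in KO and by 0.87 in KI on the log2 scale (edgeR adjusted p = 0.0259 and 0.00236), and with library totals the KO call was lost (-0.13). *Hpgds*, the prostaglandin D synthase of the sigma class, was 3.27 CPM in WT on average, 5.82 in KO and 1.27 in KI, with a log2 fold change of 2.20 in KO against KI (edgeR adjusted p = 3.03e-06). *Gstz1*, which acts in tyrosine breakdown, averaged 49.2 CPM in KO, 46.3 in WT and 21.5 in KI. It was lower in KI than in WT (-1.10, edgeR adjusted p = 1.57e-04), was not called in KO against WT (0.07, edgeR adjusted p = 0.740) and was higher in KO than in KI (1.20, edgeR adjusted p = 2.50e-06). Of the MAPEG relatives, *Ltc4s*, the leukotriene C4 synthase, fell in KO against WT (-4.44, edgeR adjusted p = 7.48e-06) and in KI against WT (-3.39, edgeR adjusted p = 2.20e-06). All 7 alpha and theta transferases tested were called lower in KO against WT, with log2 fold changes from -3.47 to -0.82, and 6 of 7 in KI against WT. With library totals these were 6 of 7 and 5 of 7.

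The steps around the transferases were mixed. Over all genes tested, 55.1% were called in KO against WT, 42.3% in KI against WT and 54.0% in KO against KI. Of 14 genes of glutathione supply, 5 were called higher and 2 lower in KO against WT (8 and 2 with library totals), 3 and 3 in KI against WT (6 and 1), and 6 and 4 in KO against KI (6 and 2). *Gss*, glutathione synthetase, stood at 83.8 CPM in KO and 29.3 in WT on average (edgeR adjusted p = 3.05e-05), and *Cth*, which makes cysteine, had a log2 fold change of 2.42 (edgeR adjusted p = 3.53e-06). *Gclm*, the modifier subunit of glutamate-cysteine ligase, was called higher in both edited lines (0.82 in KO and 0.59 in KI, edgeR adjusted p = 5.80e-04 and 0.00433). *Gclc*, its catalytic subunit, was not called in KO against WT (-0.20, edgeR adjusted p = 0.210). Of 8 genes of conjugate export, 2 were called higher and 3 lower in KO against WT (4 and 0 with library totals), 1 and 3 in KI against WT (1 and 2), and 3 and 1 in KO against KI (3 and 0). *Abcc3*, a basolateral conjugate pump, fell in both edited lines by 0.73 on the log2 scale (edgeR adjusted p = 3.66e-04 and 9.98e-04), and with library totals the KO call was lost (-0.32, edgeR adjusted p = 0.0608). Of 8 genes of mercapturate processing tested, 1 was higher and 2 lower in KO against WT (2 and 2 with library totals), 2 and 1 in KI against WT (3 and 1), and 2 and 3 in KO against KI. Of the 3 kinases bound by transferases, *Mapk8*, which encodes JNK1, fell in KO against WT (-1.20, edgeR adjusted p = 5.26e-04). *Mapk9*, which encodes JNK2, and *Map3k5*, which encodes ASK1, were called higher (0.47 and 0.65, edgeR adjusted p = 0.0209 and 0.0101).

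Among 18 transcription factors tested that are known to act on transferase genes, 7 were called higher and 6 lower in KO against WT (7 and 2 with library totals), 2 and 6 in KI against WT (6 and 1 with library totals), and 8 and 2 in KO against KI. The shares called over all genes tested were 55.1%, 42.3% and 54.0% in these comparisons, also for the phase 2 enzymes below. *Nfe2l2*, which encodes NRF2, was higher in KO against WT (log2 fold change 0.64, edgeR adjusted p = 9.84e-04), and so was *Keap1*, its inhibitor (0.69, edgeR adjusted p = 4.52e-04). *Ahr*, the dioxin receptor, fell in KO against WT (-1.37, edgeR adjusted p = 2.78e-05). *Nr1i2*, the pregnane X receptor, fell in KI against WT (-2.71, edgeR adjusted p = 8.62e-06), from 22.6 to 3.45 CPM on average. *Hnf4a* and *Cebpa*, which maintain hepatocyte genes, were higher in KO against WT (1.35 and 1.70, edgeR adjusted p = 6.29e-05 and 7.44e-06). Of 14 other phase 2 enzymes, 7 were called higher and 2 lower in KO against WT (10 and 2 with library totals), and 10 and 1 in KO against KI. In KI against WT 1 of 13 was called higher and 5 lower (1 and 3 with library totals). In KO against WT *Srxn1*, *Txnrd1* and *Ephx1* were called higher (0.92, 0.56 and 0.40, edgeR adjusted p = 4.55e-05, 0.00951 and 0.0216), and *Hmox1*, heme oxygenase 1, fell (-2.78, edgeR adjusted p = 3.14e-07). These genes are examples, and others of the list had larger changes in both directions.

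Across the 11 libraries the gene most like *Mgst1* in its log2 CPM was *Ctsh*, a lysosomal protease, with a Pearson correlation of 0.995. *Mtmr1* had 0.990 with *Gsto1*, *Aldh2* had 0.982 with *Gstp1*, and *Cdipt* had 0.985 with *Gstm2*. *Gstm4* had no gene at 0.95 or more among 12640 compared, where *Gstm2* had 141 and *Gstk1* 138. Within the set, *Gstm1* had a correlation of 0.90 with *Gstm2*, 0.91 with *Gsto1* and -0.84 with *Gstm5*. The points are libraries of 3 lines, so these values mostly describe the differences between lines, and they are given as a description.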

How the data were processed

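RNA of 4 KO, 3 WT and 4 KI libraries was sequenced by the authors' provider. The authors deposited whole-number counts per gene without normalization. The labels name HISAT2, TopHat2, Bowtie2 and StringTie without versions, and the genome build and the counting tool are not given in the sources used here. Of 26472 lines, 10 with broken fields were left out, and entries of the same name were summed to 24849 genes. Deposited FPKM columns with lost decimal points and the authors' own DESeq2 comparisons (fold changes and p-values) were not used. Groups follow the labels.

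Each pair of lines was fitted on its own libraries with edgeR 4.0.16 in R 4.3.3 (filterByExpr, TMM, robust quasi-likelihood test). Benjamini-Hochberg adjustment covered all genes tested, with a call under 0.05. A prior count of 2 was used only for the log2 CPM behind the correlations, and the edgeR fold changes kept its default. The script was tested on simulated data. Alternatives were DESeq2 1.42.0, limma 3.58.1 on log2(CPM + 1), other scalings and filters, and each library left out. Lengths and coding sequences came from GENCODE vM21. All 10 members and lists of related genes are named; the members and lists were chosen with earlier results of these data known. Depth was 29840366 to 38422243 counts, and floors of 3 counts cover counting error only. A result for 1 related gene is not reported here.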

Additional observations from a re-analysis of the deposited data

How the results depend on the processing

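The number of members called stayed within 1.5 times under every alternative run, from 7 to 9 in KO against WT, from 5 to 7 in KI against WT and from 8 to 9 in KO against KI. Of the fold changes of single members, 149 kept direction and call and 8 lost the call in KO against WT, 144 kept both, 6 gained and 1 lost a call in KI against WT, and 167 kept both and 1 gained a call in KO against KI. The sign changed in the remaining ones, all without a call. With library totals *Gstm4* in KO against WT was 0.20 and *Gsto1* in KI against WT was 0.28. *Gstm1* in KI against WT was -0.014 with DESeq2's size factors and with DESeq2, and ran from -0.15 to 0.20 over the fits that leave out a library. *Gstm5* in KI against WT ran from -0.031 to 0.38 in the same fits. Scaling by totals made 72.8% of the calls higher in KO against WT, in place of 48.5%, and 76.3% in KI against WT, in place of 50.2%. For libraries of the same number, correlations of deviations lay between -0.19 (WT 8 with KI 8) and 0.21 (KO 8 with WT 8). These correlations were not tested, and a pairing by number was fitted only as an alternative. With the number as a replicate block 8183 genes were called in KO against WT and 4891 in KI against WT, in place of 7364 and 5722. In these fits 9 members were called in KO against WT and 6 in KI against WT. Ordering levels by coding length put *Mgst1* above *Gsto1* in KI cells and *Gstm1* above *Gstp1* in KO and KI cells, and moved *Gstp3* from place 6 to place 8 in WT cells. *Gstk1* in KO and *Gstm6* in all lines rest on few counts, which limits their precision.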
